A study of Mus musculus with 768 samples.

Results

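The cells compared here are tumour endothelial cells with Selp transcripts, inside and outside the sorting gate for the MECA-79 antibody. The members were chosen by 1 measured value: a cell counted as Selp-positive when Selp stood at 10 CPM or more (CPM: a gene's counts scaled to a common library total). Of 98 tumour cells kept from inside the gate, 74 were Selp-positive. Of the tumour cells kept from outside the gate, 45 were Selp-positive, or 15.1%. These 74 and 45 cells came from 768 single-cell libraries, of which 555 were kept in all. A cell was kept if it had 50000 counts or more, 1000 genes or more, at most 30% of its counts in mitochondrial genes, and at least 2 of the 5 endothelial genes Pecam1, Cdh5, Tie1, Egfl7 and Eng at 10 CPM or more. Selp and these 5 genes chose the cells, so their values are descriptions only.

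Selp encodes P-selectin, an adhesion receptor that endothelium of veins and venules stores and displays to capture rolling leukocytes. High endothelial venules (HEVs) are specialised postcapillary venules of lymph nodes through which lymphocytes enter, and they can also appear in tumours. The MECA-79 antibody binds sulfated sugar chains on mucin-like proteins of HEVs, which serve as ligands of L-selectin on lymphocytes. Comparing cells with Selp on both sides of the gate asks how tumour endothelial cells with the MECA-79 stain differ from those without it when both carry this gene.

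The study profiled single sorted mouse cells with a modified Smart-seq2 protocol, which reads whole transcripts and carries no molecular identifiers. Its 3 groups were LN_HEV (lymph node cells sorted as CD45-CD31+MECA79+), TU_HEV (PyMT tumour cells sorted as CD45-CD31+MECA79+) and TU_EC (PyMT tumour cells sorted as CD45-CD31+MECA79-). PyMT names a mouse mammary tumour model driven by the polyoma middle T antigen. Cells bearing CD45 (leukocytes) or EpCAM (epithelial and tumour cells) had been removed with magnetic beads before the sort of tumour endothelium. TU_HEV filled 2 plates of 96 wells, pool3 and pool4, and TU_EC filled 4 plates, poolA to poolD. The sources used here name no animal, age, sex, strain or treatment. Each gate was therefore 1 sample without replicates, and no test between the gates was possible. Plates are shown for their spread only.

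The 74 cells inside the gate held 103145332 counts in all, with a median of 1396260 per cell (225113 to 3491158). The 45 cells outside held 25960992 counts, with a median of 447110 (102835 to 1562488). The median number of genes detected was 3906 inside and 3322 outside, and the median mitochondrial share was 3.88% and 4.66%. Ribosomal RNA features, left out of all totals, took 9.04% of all counts inside and 27.8% outside. Plates of TU_EC were deposited as a separate set from those of TU_HEV, so library set and gate cannot be told apart. The part of depth and ribosomal RNA in the results below was not tested. In 21 tumour libraries, 14 of them Selp-positive and all of TU_HEV, nearly every gene's count was matched or exceeded in 1 of 13 lymph node libraries, often by the identical count. No TU_EC library was of this kind. In each of the 21, the last number of the library name began with the digits of its lymph node partner's, as in S221 and S22. The origin of the shared counts was not tested. Leaving out the tumour libraries of this kind kept 60 cells inside and 45 outside. Results that this moved by over 1.5 times are named below.

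Selp itself ranged from 23.8 to 12505 CPM inside the gate, with a median of 2573. Outside it ranged from 13.9 to 14690 CPM, with a median of 1410. The cells of the 2 gates overlapped over nearly the whole range. Summed over cells, Selp stood at 3823 and 4069 CPM in pool3 and pool4, and at 1853, 2435, 2778 and 2014 CPM in poolA to poolD. Both inside plates were above every outside plate. Inside the gate, 56 of 98 cells were at 1000 CPM or more, 17 between 100 and 1000, 1 between 10 and 100, 4 above 0 but under 10, and 20 at 0. Outside, the corresponding numbers were 26, 13, 6 and 10, and all other cells were at 0. The lowest members stood at 23.8, 177.9 and 255.9 CPM inside and at 13.9, 15.0 and 16.7 CPM outside. The highest cells left out stood at 9.10, 2.37 and 0.797 CPM inside and at 8.92, 5.72 and 5.37 CPM outside. The Selp-positive share was 75.5% inside (exact 95% binomial interval 65.8 to 83.6%) and 15.1% outside (11.2 to 19.6%). With every cell thinned to 100000 counts it was 77.6% (76 of 98) and 16.7% (48 cells, with 11 cells too shallow to count). Intervals of shares, here and below, treat cells as independent draws and leave out any spread between animals. Intervals of ratios, given below, count each amplified read as an independent molecule. Reads are not independent molecules, so these intervals are too narrow even for counting error.

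**Figure D1:**
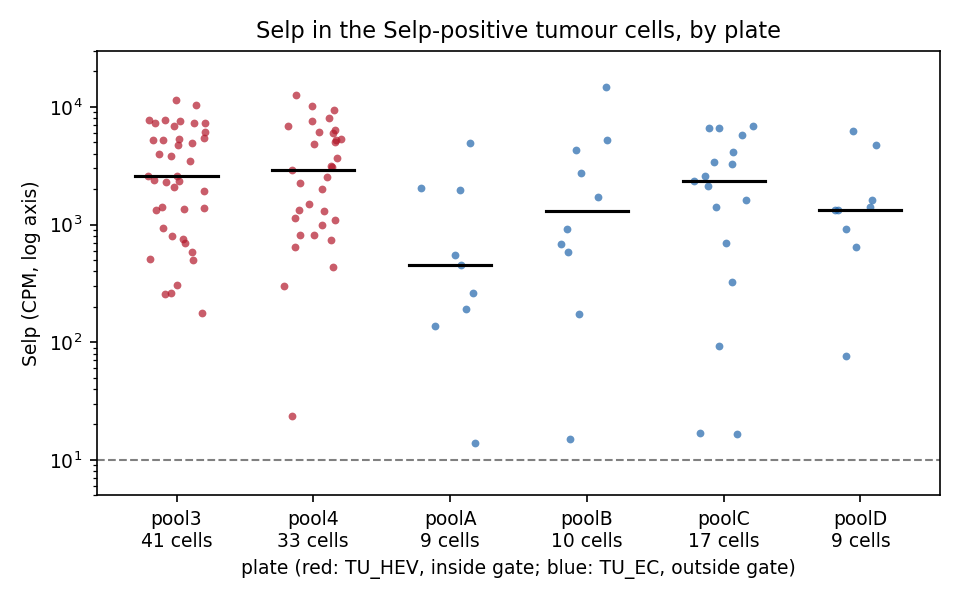
Selp in each Selp-positive tumour cell, in CPM on a log axis, by plate (red: inside the gate, 74 cells; blue: outside, 45 cells). Bars mark plate medians and the dashed line the threshold of 10 CPM; cells ranged from 23.8 to 12505 CPM inside and from 13.9 to 14690 CPM outside.

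The rule for keeping cells required endothelial genes, so their presence is a description. All 5 endothelial genes stood at 10 CPM or more in 55 of 74 cells inside and 42 of 45 outside, and the others had at least 3. The platelet and endothelial adhesion molecule Pecam1, one of the genes used to keep cells, was at 2994 CPM inside and 3033 outside. Leukocyte markers summed to 222.7 CPM inside and 147.3 outside, nearly all of it Lcp1, an actin-bundling protein, while Ptprc, Cd52 and Tyrobp were at 0 in both. T cell markers summed to 19.02 and 21.03 CPM, all from Lck, with Cd3e, Cd3d, Trbc2 and Cd2 at 0. Epithelial markers were at 0 of 6 genes inside and at 1.77 CPM outside, all from Krt8. Mural and fibroblast markers summed to 1.97 and 16.4 CPM, with Pdgfrb, Col1a1, Col1a2 and Dcn at 0 in both. B cell markers summed to 2.10 CPM inside and 0 outside, myeloid markers to 5.52 and 2.12, and erythroid and platelet markers to 23.2 and 6.05.

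Lymphatic markers were the exception, at 25.1 CPM inside and 785 outside. A single poolC cell carried all 6 of them and 89150.5 CPM of Ccl21a, a chemokine of lymphatic vessels and lymph nodes; it passed the Selp threshold and is a member. No other cell on either side held 3 of the 6. Mmrn1 and Reln came from it alone and were at 0 inside. Without that cell the log2 ratio inside over outside turned from -3.31 to 3.89 for Prox1, from -3.30 to 6.78 for Lyve1 and from -3.44 to 4.88 for Pdpn, where 1 to 4 cells inside carried each gene at 10 CPM. These 3 values are lower limits, since no outside count then remained. Without the libraries held in lymph node libraries the log2 ratio of Lyve1 was -4.91. Ccl21a shares nearly all of its sequence with other gene copies, which leaves its count uncertain.

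Across the genome, 9815 genes reached 10 CPM in at least 1 of the 2 sums. Of these, 1387 (14.1%) were at least 2-fold higher inside the gate and 1582 (16.1%) at least 2-fold lower. The median log2 ratio over all of them was -0.07. For 1038 genes (10.6%) both inside plates stood above all 4 outside plates, and for 623 (6.35%) both stood below. These shares are the background for every gene list that follows. Counting ribosomal RNA in the totals would add 0.33 to the median log2 ratio and would give 1994 genes higher and 903 lower, so the balance between higher and lower genes rests on that choice. Single cells weighed heavily: leaving out 1 cell moved the ratio by over 1.5 times for 88 genes of those examined by name or list. Where such a gene is described below, the value without that cell stands beside it.

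Genes of the MECA-79 sugar and of selectin ligand synthesis, taken as 1 list, were split. Of 9 measured, 3 were at least 2-fold higher inside, 1 was lower and 5 lay within 2-fold, with a median log2 ratio of 0.24. Chst4, the sulfotransferase that adds the sulfate of the MECA-79 epitope, stood at 367.2 CPM in pool3 and 220.97 in pool4, and at 0 in all 4 outside plates. Its range over cells inside was 0 to 1233 CPM, with a median of 150.6. It passed 10 CPM in 41 of 74 cells inside (55.4%, 43.4 to 67.0%) and in 0 of 45 outside. A limit of 3 cells in 45 allows a share of up to 6.67% of cells with such a level (exact 95% upper bound 7.87%). The groups of plates did not overlap, and the outside cells held no Chst4 count. Against a floor of 3 counts over the outside cells, the 293.4 CPM inside was at least 2539-fold higher. Thinning to 100000 counts gave 42 of 74 and 0 of 45 cells. The gate itself selected for the product of this enzyme. Fut7, which adds the fucose that completes L-selectin ligands, was at 33.7 and 18.6 CPM in the inside plates and at 0 in the outside plates, at least 225.8-fold higher. It rested on fewer cells: 8 of 74 inside and 0 of 45 outside passed 10 CPM. St3gal6, a sialyltransferase, was at 253.002 CPM inside and 100.5 outside, 2.52-fold higher (exact Poisson 95% interval 2.42 to 2.62), with both inside plates above all outside plates. With equal weight for each cell its log2 ratio was 0.99, just under 2-fold.

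Of the remaining enzymes of the pathway, 5 lay within 2-fold. B3gnt3, which extends the core 1 chain that carries the epitope, was at 116.8 CPM inside and 113.5 outside. The second sulfotransferase Chst2 was at 56.8 and 41.7 CPM, B4galt1, which adds galactose, at 156.5 and 132.7, and the sialyltransferase St3gal4 at 257.02 and 233.4. The plates of the 2 gates overlapped for all 4 genes. The fucosyltransferase Fut4 was at 13.1 CPM inside and 22.4 outside, also with overlapping plates. Gcnt1, which makes core 2 branches, was the lower gene, at 3.42 CPM inside and 14.4 outside (4.21-fold lower). It passed 10 CPM in 3 cells on each side, and without 1 poolD cell it was 1.88-fold lower. Slc35c1, the Golgi transporter of GDP-fucose, stayed under 10 CPM in both sums and was not counted.

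**Figure D2:**
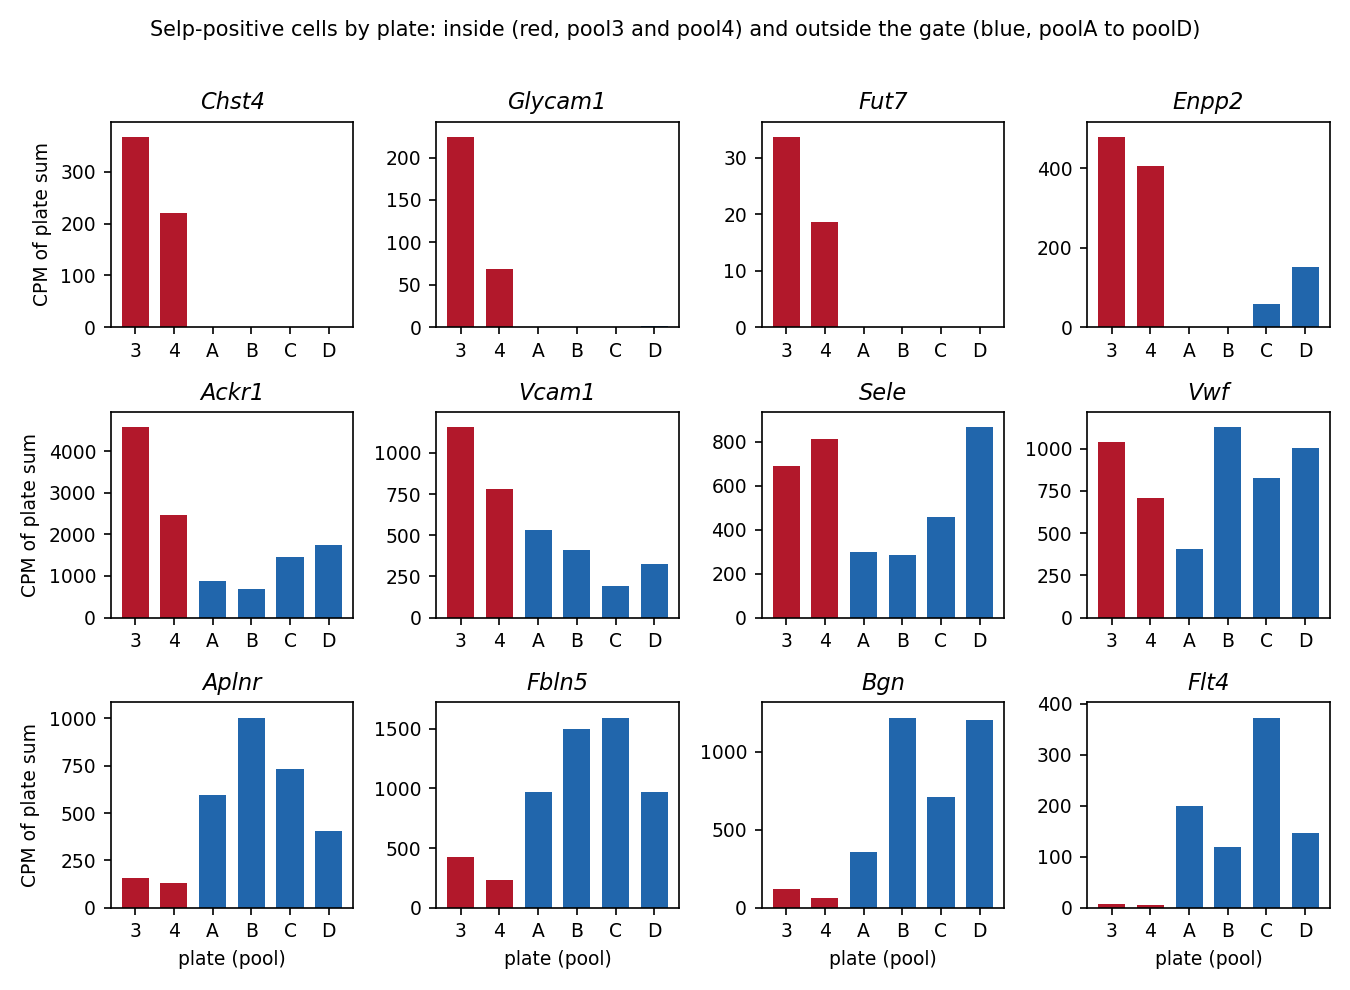
CPM of 12 genes in the Selp-positive cells summed per plate (red: pool3 and pool4 inside the gate; blue: poolA to poolD outside). Chst4 and Fut7 were at 0 in every outside plate, Vwf overlapped between the gates, and Aplnr, Fbln5, Bgn and Flt4 were lower in both inside plates than in any outside plate.

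The promoters of Chst4, Glycam1 and Selp are shown, because Chst4 and Glycam1 were nearly confined to the inside gate while Selp marked both sides. Each run is the 250 bases before the RefSeq start site on the gene's own strand (GRCm38.p6), 5′ to 3′: Chst4 at chr8:110039335-110039584 on the minus strand, Glycam1 at chr15:103565082-103565331 on the minus strand, and Selp at chr1:164115014-164115263 on the plus strand. Capitals mark a match on either strand to a pattern of NF-kB sites (GGG, any 5 bases, CC), TTCNNNGAA (a pattern of STAT sites) or AGGTCA (a nuclear receptor half-site).
Chst4: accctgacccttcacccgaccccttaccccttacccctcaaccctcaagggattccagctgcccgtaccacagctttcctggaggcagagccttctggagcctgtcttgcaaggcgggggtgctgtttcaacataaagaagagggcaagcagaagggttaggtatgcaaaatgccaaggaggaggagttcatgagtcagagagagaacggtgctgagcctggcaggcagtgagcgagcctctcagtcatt
Glycam1: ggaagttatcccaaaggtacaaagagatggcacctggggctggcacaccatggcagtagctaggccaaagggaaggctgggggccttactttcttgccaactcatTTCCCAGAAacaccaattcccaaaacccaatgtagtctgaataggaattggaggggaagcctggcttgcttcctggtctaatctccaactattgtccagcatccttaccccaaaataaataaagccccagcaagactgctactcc
Selp: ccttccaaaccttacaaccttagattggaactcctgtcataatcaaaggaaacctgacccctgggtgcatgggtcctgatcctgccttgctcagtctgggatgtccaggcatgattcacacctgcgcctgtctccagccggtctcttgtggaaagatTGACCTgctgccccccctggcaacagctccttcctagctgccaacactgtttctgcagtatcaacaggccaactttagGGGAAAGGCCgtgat
The Glycam1 window held TTCCCAGAA. The Selp window held GGGAAAGGCC, 15 to 6 bases before the start, and TGACCT, the reverse strand of AGGTCA, 93 to 88 bases before it. The Chst4 window held none of the 3. Of 32851 promoter windows of the same length, 45.8% held the NF-kB pattern, 7.02% TTCNNNGAA and 14.0% AGGTCA, so the matches are descriptions of the letters and no more.

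Of 6 measured mucins and addressins that can carry the sugar, 2 were at least 2-fold higher inside and none lower, with a median of -0.01. Glycam1, a secreted mucin of lymph node HEVs, was at 224.4 CPM in pool3 and 68.3 in pool4, at 0 in poolA to poolC and at 1.38 in poolD. Over cells inside it ranged from 0 to 3735 CPM, with a median of 0.519, so a minority of cells held most of it: 17 of 74 passed 10 CPM, and 1 cell held 41.8% of the counts. Outside, all 7 counts lay in 1 poolD cell. The sums, 145.6 and 0.270 CPM, gave a 540-fold higher level inside (261.96 to 1343), or at least 1221-fold without that cell. Cd34, a sialomucin of most endothelium, was at 1986 and 2210 CPM, and Cd164 at 383.6 and 347.3, both with overlapping plates. Emcn, endomucin, was lower in both inside plates than in any outside plate, at 619 and 1223 CPM (1.98-fold lower), and podocalyxin (Podxl) was at 58.7 and 98.3 CPM. Madcam1, the ligand of the gut-homing integrin, was at 24.1 and 5.89 CPM. It rested on 4 cells inside and 1 poolA cell outside; without pool3 its log2 ratio turned from 2.03 to -1.4, and without the poolA cell it was at least 199.4-fold higher. Parm1 had no count on either side.

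Other genes known from lymph node HEVs were mostly higher inside the gate. Of 9 measured, 7 were at least 2-fold higher and 2 lower, with a median log2 ratio of 1.34, against -0.07 over all genes. The list was compiled with earlier results of these data known. Enpp2, autotaxin, which makes lysophosphatidic acid, was at 479.5 and 407 CPM in the inside plates, at 0 in poolA and poolB, and at 57.2 and 150.7 in poolC and poolD. Of 74 cells inside, 41 passed 10 CPM, as did 3 of 45 outside. The sums, 443 and 51.4 CPM, were 8.62-fold apart (8.16 to 9.11), and 19.5-fold without 1 poolD cell. Ackr1, a receptor that binds and displays chemokines on venules, was at 4583 and 2462 CPM in the inside plates and at 876, 698, 1467 and 1745 CPM in the outside plates. Over cells its median was 1579 CPM inside and 234.9 outside, with cells at 0 in both, and 66 of 74 against 27 of 45 cells passed 10 CPM. Both inside plates were above all outside plates, at 2.83-fold in the sums (2.80 to 2.86); without pool3 the log2 ratio was 0.99. Lrg1, a secreted leucine-rich glycoprotein, passed 10 CPM in all 74 cells inside and in 39 of 45 outside. Its sums were 5602 and 2731 CPM (2.05-fold higher), under 2-fold when cells had equal weight (log2 ratio 0.80). Among cells with Selp at 1000 CPM or more the log2 ratio of Lrg1 was 0.52.

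Both genes of sphingosine 1-phosphate supply on the list were higher inside. Spns2, which exports the lipid, was at 242.7 and 238.7 CPM in the inside plates and at 36.5 to 164.9 in the outside plates, 2.53-fold higher in the sums. Sphk1, which makes it, was at 23.4 CPM inside against 3 counts outside (202.2-fold, 69.1 to 981, or 587-fold without 1 poolD cell), but only 5 cells inside passed 10 CPM. Apoe, an apolipoprotein, was at 873 and 365.2 CPM (2.39-fold higher); among cells with Selp at 1000 CPM or more its log2 ratio was 0.46. At 10 CPM, it was carried by 59 of 74 cells inside and 15 of 45 outside. Ubd, a ubiquitin-like protein induced by inflammatory cytokines, was at 1665 and 564 CPM in the inside plates and at 887, 537, 2.60 and 0 in the outside plates. The plates overlapped, and the 3.58-fold ratio of the sums was 10.5-fold without 1 poolA cell. Cd24a, a small anchored glycoprotein, was lower, with 1 count inside and 42.6 CPM outside (4390-fold, 786 to 173561), the latter from 4 cells; leaving out the 1 cell with the count inside left it at least 1453-fold lower. Ccl21a, the other lower gene, came outside from the lymphatic cell, and was at least 4.28-fold higher inside without it. Its inside sum was 0.514 CPM, under the 10 CPM asked of a counted gene, and 1 cell held 88.7% of that.

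12 genes were named as the largest differences in each direction, by a rule asking for 50 CPM, a count in 30% of cells and a ratio of at least 2 in all 8 pairs of plates; 59 genes passed it as higher and 40 as lower. Chst4 and Glycam1 were among the 12 higher genes. Serpinb1a, an inhibitor of neutrophil proteases, was at 2267 and 1923 CPM in the inside plates and at 162.7, 243.8, 130.8 and 123.4 in the outside plates. Its median over cells was 906 CPM inside and 0 outside, and 66 of 74 against 12 of 45 cells passed 10 CPM. It was 13.3-fold higher in the sums (12.9 to 13.7), and no alternative moved this by over 1.5 times. Oit1 was at 47.6 and 87.6 CPM in the inside plates and at 0 in every outside plate (at least 586-fold higher), in 25 of 74 cells. Lipg, endothelial lipase, was at 88.8 CPM inside and 1.0 outside (88.7-fold); 1 poolB cell held 92.3% of the outside counts, and without it the ratio was 1149-fold.

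The other named higher genes ranged from 9.57-fold to 17.2-fold. Naaa, a lysosomal amidase that degrades fatty acid amides, was at 93.4 and 5.43 CPM (17.2-fold, or 28.9-fold without 1 poolB cell), and Ogfrl1 at 52.7 and 3.16 CPM (16.7-fold, or 52.2-fold without 1 poolC cell). Slc16a1, a transporter of lactate and other monocarboxylates, was at 103.9 and 8.86 CPM (11.7-fold, or 26.1-fold without 1 poolA cell). Spry2, a feedback inhibitor of growth factor receptor signalling, was at 64.3 and 6.16 CPM (10.4-fold), in 43 of 74 and 9 of 45 cells. Ch25h, which makes 25-hydroxycholesterol, was at 159.2 and 16.3 CPM (9.77-fold, or 20.4-fold without 1 poolB cell). The kinase Irak4, which acts below interleukin 1 and Toll-like receptors, was at 57.5 and 5.89 CPM (9.77-fold, or 14.8-fold without 1 poolC cell), and the nuclear ubiquitin ligase Trim33 at 51.6 and 5.39 CPM (9.57-fold). All 12 stayed at least 2-fold higher under every alternative and without any single cell. The rule had already asked for 2-fold in every pair of plates, so leaving out a plate could not undo this.

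The 12 genes named as lower stood from 8.93-fold to 10235-fold below the outside level. Piezo2, a mechanically gated channel, had 1 count inside against 99.2 CPM outside (10235-fold, 1835 to 404403); without the 1 pool4 cell that held this count it was at least 3398-fold lower. Piezo2 passed 10 CPM in 0 of 74 and 13 of 45 cells. Flt4, the receptor of vascular endothelial growth factor C, was at 6.95 and 6.2 CPM in the inside plates and at 200.3, 119.9, 373.2 and 146.7 in the outside plates. Only 4 of 74 cells inside passed 10 CPM, against 23 of 45 outside. No plate overlapped, at 36.8-fold lower (34.0 to 39.9) in the sums and 23.5-fold without the lymphatic poolC cell. Flt4 is also 1 of the 6 lymphatic markers. Its ligand gene Vegfc was at 2.74 and 80.04 CPM (29.2-fold lower, or 56.3-fold without 1 pool3 cell). Ednrb, an endothelin receptor, was at 10.9 and 355.9 CPM (32.8-fold, or 79.7-fold without 1 pool4 cell). Nid2, a nidogen of basement membranes, was at 8.81 and 195.7 CPM (22.2-fold, or 42.4-fold without 1 pool3 cell). It was carried at 10 CPM by 4 of 74 and 16 of 45 cells.

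Tspan14, a tetraspanin, was at 6.48 and 119.4 CPM (18.4-fold lower), Jup, the junction protein plakoglobin, at 15.5 and 268.8 (17.3-fold), and the membrane protein Palm at 5.23 and 86.2 (16.5-fold). Each passed 10 CPM in 3 or 4 cells inside, and leaving out 1 of them gave 35.4-fold, 29.1-fold and 28.4-fold. Ctsh, a lysosomal protease, was at 14.3 and 179.5 CPM (12.6-fold, or 29.5-fold without 1 pool3 cell) and Cthrc1, a secreted protein, at 8.62 and 94.3 CPM (10.9-fold, or 17.5-fold without 1 pool3 cell). Bgn, the matrix proteoglycan biglycan, was at 123.4 and 60.5 CPM in the inside plates and at 358.4, 1220, 713 and 1206 in the outside plates. It passed 10 CPM in 8 of 74 and 23 of 45 cells and was 8.93-fold lower (8.71 to 9.15), with no overlap of plates. Igfbp3, a carrier of insulin-like growth factors, was the exception to stability among the 12. It was at 111.9 and 1417 CPM (12.7-fold lower), 1 pool4 cell held 68.9% of the inside counts (40.0-fold without it), and at Selp of 1000 CPM or more its log2 ratio was -0.98.

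Genes of venous identity went both ways. Of 10 measured, 2 were at least 2-fold higher inside, 2 lower and 6 within 2-fold, with a median of -0.21. Vwf, the clotting factor carrier stored beside P-selectin, was at 1040 and 707 CPM in the inside plates and at 405, 1127, 828 and 1006 in the outside plates, with overlap. The venous transcription factor Nr2f2 was at 72.7 and 51.8 CPM, the venous ephrin receptor Ephb4 at 160.02 and 280.5 and the neuropilin Nrp2 at 108.1 and 154.8, all with overlapping plates. Emp1, Tmem100 and Flrt2 also overlapped, and the log2 ratio of Flrt2 went from -0.56 to 0.03 without 1 poolC cell. Il1r1, the interleukin 1 receptor, was one of the higher genes beside Ackr1. It was at 308.8 and 304.3 CPM in the inside plates and at 71.0, 160.6, 60.3 and 65.3 in the outside plates, 3.73-fold higher (3.57 to 3.90), and in 62 of 74 against 18 of 45 cells. Aplnr, the apelin receptor, was lower: 159.997 and 132.6 CPM in the inside plates, and 598, 1005, 734 and 404 in the outside plates. Its median over cells was 0 inside and 373.3 CPM outside, with 29 of 74 and 32 of 45 cells at 10 CPM or more. It was 4.70-fold lower (4.60 to 4.80) with no overlap of plates. Tmem100, a target of bone morphogenetic protein signalling, was at 8.77 and 19.3 CPM (2.20-fold lower). Leaving out each cell in turn gave from 1.45-fold lower to 5.21-fold lower, the latter without 1 pool3 cell.

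Among 10 leukocyte adhesion genes, 2 were at least 2-fold higher inside and none lower, with a median of -0.15. The higher ones were Madcam1, described above, and Vcam1, which binds integrins of lymphocytes and monocytes. Vcam1 was at 1155 and 778 CPM in the inside plates and at 531, 410.5, 188.99 and 325.9 in the outside plates. Its median over cells was 346.6 CPM inside and 0 outside, and 57 of 74 against 16 of 45 cells passed 10 CPM. It was 2.86-fold higher (2.80 to 2.92), and no alternative moved this by over 1.5 times. Sele, E-selectin, was at 688 and 810 CPM in the inside plates and at 297.04, 284.3, 456 and 866 in the outside plates. The plates overlapped, the sums were 750 and 467 CPM (1.61-fold higher, past 2-fold without poolD or with ribosomal RNA in the totals), and 57 of 74 and 28 of 45 cells passed 10 CPM. Icam1, the ligand of leukocyte integrins, was at 1174 and 1212 CPM, and Esam, a junction protein, at 1220 and 1464, both with overlapping plates. F11r, junctional adhesion molecule A, was lower in both inside plates than in any outside plate, by 1.41-fold in the sums (499 and 704 CPM).

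Capillary and lipid uptake genes did not move as one. Of 10 measured, 5 were at least 2-fold higher inside and 2 lower, with a median of 0.86 that was 0.30 among cells with Selp at 1000 CPM or more. Cd36, the fatty acid translocase, was at 2152 and 2381 CPM in the inside plates and at 323.6, 739, 1152 and 345.5 in the outside plates. Inside it ranged from 1.03 to 8900 CPM, with a median of 1676, and 73 of 74 cells passed 10 CPM; outside its median was 233.997 and 25 of 45 cells passed. It was 3.14-fold higher (3.09 to 3.18), with no overlap of plates, and 4.99-fold without poolC. Cd300lg, a mucin-like receptor of capillaries and HEVs, was at 695 and 267.6 CPM (2.60-fold higher), and Fabp5, a fatty acid binding protein, at 263.2 and 130.5 (2.02-fold), the latter with overlapping plates. Slc28a2, a nucleoside transporter, was at 13.1 CPM inside, in 9 cells, and at 0 outside (at least 113.8-fold higher). Car4, a carbonic anhydrase of capillaries, was at 360.6 and 21.1 CPM (17.1-fold higher); 1 poolB cell held 99.8% of the outside counts, and the ratio was 8809-fold without it. It passed 10 CPM in 28 of 74 and 1 of 45 cells. Gpihbp1, which holds lipoprotein lipase on capillaries, was lower, at 38.6 and 245.6 CPM (6.36-fold, or 10.5-fold without 1 pool3 cell), as was Rgcc, a cell cycle regulator of capillary cells, at 28.0 and 108.3 CPM (3.87-fold).

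Arterial genes were lower inside the gate, but most were sparse outside as well. Of 9 measured, 8 were at least 2-fold lower and 1 higher, with a median of -2.01 (-1.09 at Selp of 1000 CPM or more). Fbln5, an elastic fibre protein, was at 423 and 229.1 CPM in the inside plates and at 969, 1496, 1592 and 966 in the outside plates. It passed 10 CPM in 34 of 74 and 35 of 45 cells and was 4.02-fold lower (3.96 to 4.08) with no overlap. Sox17, an arterial transcription factor, was at 73.6 and 179.6 CPM (2.44-fold lower, or 1.86-fold without 1 poolD cell). The gap junction gene Gja4 was at 0 inside and 187.7 CPM outside (at least 6454-fold lower), yet 4 of 45 cells carried it and 1 poolD cell held 85.8% of its counts; without that cell it was at least 942-fold lower. Bmx was at 0 inside and passed 10 CPM in 2 outside cells, and without 1 poolD cell it was at least 293.6-fold lower. Sema3g rested on 1 cell on each side and was at 0.65 CPM inside. Without the outside cell it was at least 5.46-fold higher inside. Hey1 passed 10 CPM in 1 cell inside and 2 outside, at 1.32 and 10.9 CPM; it was 139.7-fold lower without 1 pool3 cell and at least 305.5-fold lower without the libraries held in lymph node libraries. Efnb2 was at 8.20 and 27.97 CPM, and 11.1-fold lower without 1 pool4 cell. Leaving out each cell in turn gave log2 ratios from -3.47 to -0.48 for Efnb2 and from -7.13 to -1.70 for Hey1. Hey1, Efnb2, Dll4 and Sema3g were lower at the 10 CPM threshold for Selp and higher at 1000, where their log2 ratios were 3.12, 2.17, 1.63 and 2.10. At the 10 CPM threshold, 1 cell each held 94.1%, 69.9%, 21.8% and 100% of their inside counts. Jag1, a Notch ligand, was the higher gene, at 74.4 and 34.8 CPM (2.14-fold, or 3.40-fold without 1 poolD cell), with overlapping plates.

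Tip cell and angiogenic genes were also mostly lower: 8 of 10 measured, with a median of -3.46 (-1.17 at Selp of 1000 CPM or more). Plxnd1, a semaphorin receptor, was at 199.05 and 467 CPM (2.35-fold lower), in 50 of 74 and 41 of 45 cells; without pool4 its log2 ratio was -0.78. Apln, the ligand of Aplnr, was at 22.9 and 322.6 CPM (14.1-fold lower), in 8 of 74 and 11 of 45 cells, and its plates overlapped. Kcne3, a potassium channel subunit, was at 20.3 and 175.6 CPM, and 16.3-fold lower without 1 pool4 cell, but at Selp of 1000 CPM or more its log2 ratio turned to 6.71. Pgf, Unc5b and Adm were at 0 inside and passed 10 CPM in 2, 3 and 2 cells outside. Without 1 of these cells each, they were at least 168.9-fold, 93.7-fold and 732-fold lower. Esm1, a common tip cell marker, had no count in any member on either side. Angpt2, a ligand of the Tie2 receptor that loosens vessels, went the other way. It was at 564 and 607 CPM in the inside plates and at 34.4, 223.4, 393 and 0 in the outside plates, 2.92-fold higher (2.84 to 3.0), in 51 of 74 and 17 of 45 cells. Without poolC the ratio was 7.33-fold, and without 1 poolC cell 4.44-fold.

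Among matrix and basement membrane genes, 4 of 13 were lower inside by 2-fold or more and 1 was higher, with a median of -0.76. At Selp of 1000 CPM or more the median was -0.11. Sparc, a secreted matrix-binding protein, was at 2710 and 2908 CPM in the inside plates and at 8803, 7167, 5747 and 4423 in the outside plates. All inside cells carried it, from 154.6 to 6800 CPM, and it was 2.30-fold lower (2.29 to 2.32) with no overlap of plates. Lama4, a laminin chain of endothelium, was at 41.5 and 288.4 CPM (6.95-fold lower), in 19 of 74 and 23 of 45 cells. Lamb1, its partner chain, was at 139.9 and 323.99 CPM (2.32-fold lower), a direction that turned at Selp of 1000 CPM or more (0.13). Fibronectin (Fn1) was at 0.252 and 175.9 CPM (698-fold lower, 476 to 1069), in 1 of 74 and 8 of 45 cells, and 2976-fold lower without 1 pool3 cell. The type IV collagen genes Col4a1 (1415 and 2403 CPM) and Col4a2 (1026 and 1517 CPM) lay within 2-fold with overlapping plates. Lama5, a laminin chain of mature vessels, was higher, at 302.8 and 144.7 CPM (2.09-fold), and 1.69-fold without poolD. With equal weight for each cell its log2 ratio was 0.58.

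Interferon-stimulated genes tended to be higher: 5 of 14 measured were at least 2-fold higher and none lower, with a median of 0.87. This median ranged from -0.26 to 2.03 over the 8 pairs of plates. Of the 14, 4 had both inside plates above all outside plates, against 10.6% of all genes. Irf1, a transcription factor of the interferon response, was at 1021 and 495 CPM (2.06-fold higher), though at 1.52-fold without poolC. Iigp1, an interferon-induced GTPase, was at 1433 and 821 CPM (1.75-fold), without overlap of plates. Ifit1 was at 95.7 and 7.47 CPM (12.8-fold), and 77.3-fold without 1 poolC cell. Isg15, a ubiquitin-like modifier, was at 59.6 and 29.8 CPM (2.0-fold), and under 2-fold in several alternatives. The GTPases Gbp2 (860 and 1302 CPM) and Igtp (581.96 and 499 CPM) had overlapping plates, and Gbp2 was 1.46-fold higher inside without 1 poolA cell. Of 10 MHC class I genes, 4 had both inside plates above all outside plates and 6 overlapped. Only Nlrc5, the activator of the class, passed 2-fold (67.5 and 21.3 CPM, with overlapping plates), and the median of the 10 genes was 0.63 and ranged from 0.14 to 1.02 over the 8 pairs of plates. H2-D1 was at 18972 and 15764 CPM in the inside plates and at 10508 to 13979 in the outside plates (1.52-fold), H2-K1 at 4401 and 2702 CPM in the sums (1.63-fold), B2m at 6834 and 4319 (1.58-fold) and the immunoproteasome subunit Psmb8 at 749 and 449 (1.67-fold), all 4 without overlap of plates. H2 genes are near-identical in part, so their counts may share reads.

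Of 7 MHC class II genes measured, all but Ciita passed 10 CPM in a larger share of cells inside than outside; the part of depth in this was not tested. Cd74, the invariant chain, passed 10 CPM in 55 of 74 cells inside and 10 of 45 outside (24.4% after thinning). Its sums, 1749 and 892 CPM, were only 1.96-fold apart, with overlapping plates. A single poolA cell held 52.8% of the outside counts, and the ratio was 3.90-fold without it. H2-Aa was at 229.4 and 120.9 CPM (1.90-fold, or 3.32-fold without 1 poolA cell), in 37 of 74 and 7 of 45 cells. Of the 7 genes, 2 were at least 2-fold higher and 1 lower, with a median of 0.94 that ranged from -0.61 to 3.17 over the 8 pairs of plates. Ciita, the activator of the class, was the lower one, at 10 CPM in 1 cell inside and 3 outside. That inside cell held 99.7% of the inside counts, and 1 outside cell held 72.3% of the outside counts. The log2 ratio of Ciita was -3.47, and leaving out each cell in turn gave values from -11.79 to -1.64. Without the inside cell it was 3552-fold lower, and without the libraries held in lymph node libraries 2934-fold. Chemokine genes varied by plate. Of 10 measured, 2 were at least 2-fold higher and 5 lower, with a median of -1.43 that turned to 0.02 without poolA. Cxcl9, a ligand of CXCR3 on T cells, was at 684 and 339.05 CPM in the inside plates and at 2597, 1523, 0 and 0 in the outside plates. Inside, 34 of 74 cells passed 10 CPM, and outside 7 of 45; without 1 poolA cell it was 1.69-fold higher inside. Cxcl10 and Cxcl11 also overlapped between plates, and without 1 cell each, of poolB and poolA, they were 3.56-fold and 1.21-fold higher inside. Cxcl1, a neutrophil attractant, was at 396 and 286.4 CPM in the inside plates and at 15.0, 93.8, 99.3 and 0 in the outside plates (5.77-fold higher, 5.49 to 6.08). Cx3cl1, fractalkine, was lower, at 18.8 and 86.1 CPM (4.58-fold, or 10.3-fold without 1 pool3 cell), as was Ackr3, a scavenger of Cxcl12, at 11.4 and 96.2 CPM (8.45-fold, or 23.3-fold without 1 pool4 cell).

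In the lymphotoxin and NF-kB list, 3 of 13 were at least 2-fold higher and none lower, with a median of 0.29. Birc3, an inhibitor of apoptosis and NF-kB target, was at 213.7 and 217.01 CPM in the inside plates and at 1.47, 47.7, 81.5 and 1.78 in the outside plates (5.27-fold higher), in 41 of 74 and 8 of 45 cells. Tnfaip3, which limits NF-kB signalling, was at 533 and 161.6 CPM (3.30-fold, or 6.74-fold without 1 poolA cell). The lymphotoxin receptor gene Ltbr (144.9 and 186.1 CPM) and the factors Relb (90.5 and 133.7 CPM) and Nfkb2 (94.4 and 105.97 CPM) had overlapping plates. Among 9 cytokine and interleukin 6 family genes, 2 were at least 2-fold higher and none lower, with a median of 0.81, or 0.16 without the libraries held in lymph node libraries. Il6st, the shared receptor chain of that family, was at 1715 and 1750 CPM in the inside plates and at 304.5 to 1152 in the outside plates (2.06-fold), and Osmr, the oncostatin M receptor, at 488 and 191.98 CPM in the sums (2.54-fold), in 68 of 74 and 21 of 45 cells. Weighting cells equally put both under 2-fold, at log2 ratios of 0.78 and 0.86. Il6 (363.7 and 207.5 CPM) and the granulocyte factor Csf3 (358.9 and 182.1 CPM) overlapped between plates. Csf3 rested in part on the libraries held in lymph node libraries, without which its log2 ratio was -0.07. Hdc, which makes histamine, was at 446 and 249.4 CPM (1.79-fold higher) without overlap.

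Of 9 coagulation genes, 4 were lower and none higher (median -0.89), against 16.1% lower over all genes. Among them were Plat, tissue plasminogen activator, at 23.7 and 117.5 CPM (4.96-fold lower) without overlap of plates, and Thbd and Plau, with overlap. Plau was 1.44-fold lower without 1 poolC cell. Of 8 receptors for VEGF, angiopoietins and bone morphogenetic proteins, only Tek, the Tie2 receptor, passed 2-fold, at 211.4 and 428 CPM (2.02-fold lower), and it was 1.59-fold lower without 1 poolC cell. Kdr was at 289.2 and 359.7 CPM and Flt1 at 595 and 737. Of 5 immune regulatory ligands, Tnfsf10, the death ligand TRAIL, was 2.01-fold higher and Nt5e, the ectoenzyme CD73, 2.0-fold lower, both with overlapping plates. Without 1 poolA cell Nt5e was 1.12-fold lower. Entpd1 (CD39) was at 1836 and 1808 CPM. Of 9 proliferation genes, 5 were lower and none higher (median -1.50), but the median was 0.12 at Selp of 1000 CPM or more. Mcm5, a replication helicase subunit, was at 30.9 and 140.1 CPM (4.53-fold lower), in 7 of 74 and 9 of 45 cells. None of 8 hypoxia and glycolysis genes passed 2-fold. Of 12 immediate early and heat shock genes, 1 was higher and 2 were lower; Fos was at 2014 and 3550 CPM with overlapping plates. The medians of the venous, mucin, adhesion, hypoxia and immediate early lists changed sign when ribosomal RNA was counted in the totals.

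**Figure D3:**
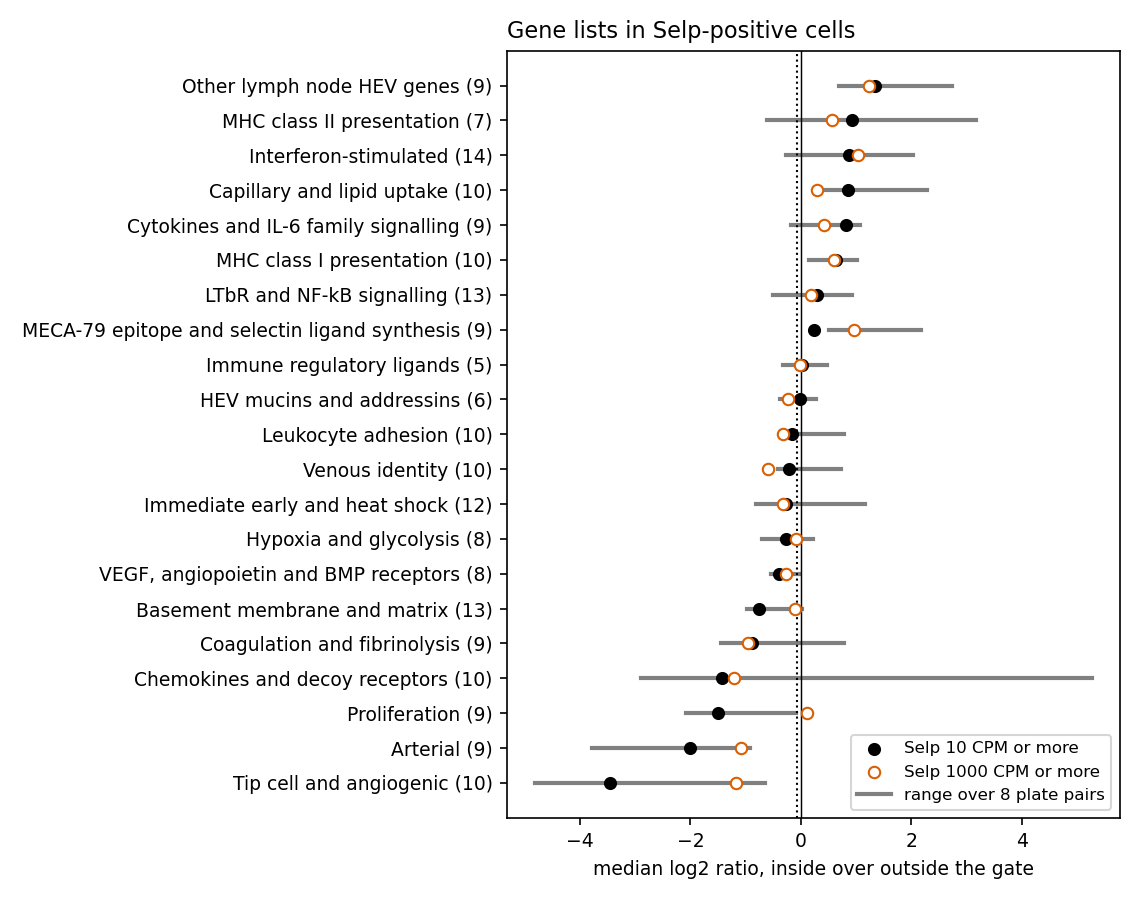
Median log2 ratio of summed CPM, inside over outside the gate, for 21 gene lists (number of genes measured in brackets). Filled points: Selp at 10 CPM or more; open points: 1000 or more; grey bars: range over 8 plate pairs, each over the genes detected in that pair; dotted line: all genes, at -0.07. The median was 1.34 for other lymph node HEV genes and -3.46 for tip cell genes.

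Restricting the comparison to Selp-positive cells changed the picture of several genes relative to all tumour cells kept; the comparisons share cells, so the values are given side by side. Over all kept cells, 1077 of 9800 genes (11.0%) were at least 2-fold higher inside and 1252 (12.8%) lower. Among Selp-negative cells, of which the inside gate held 24, 1621 of 9890 (16.4%) were higher and 2170 (21.9%) lower. Ackr1 had a log2 ratio of 3.63 over all cells and 1.5 among Selp-positive cells. Inside the gate it was at 3512 CPM in Selp-positive cells and at 3 counts in Selp-negative cells, and outside at 1240 and 10.97 CPM. The corresponding log2 ratios of Sele were 2.76 and 0.69, of Lrg1 2.58 and 1.04, of Icam1 1.5 and -0.05, and of Vwf 1.5 and 0.09. The log2 ratio of each of these 5 genes was smaller among cells with Selp; this difference was not tested. Within each gate, Sele was at 750 CPM in Selp-positive and 8.47 in Selp-negative cells inside, and at 467 and 8.83 outside. Serpinb1a kept a log2 ratio of 3.73 against 4.24 over all cells, and Enpp2 3.11 against 4.02. For Chst4, 0 of 24 Selp-negative cells inside passed 10 CPM. Glycam1 was at 145.6 CPM in Selp-positive and 124.4 in Selp-negative cells inside the gate, but passed 10 CPM in 17 of 74 (23.0%) and 2 of 24 (8.33%) of these cells.

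**Figure D4:**
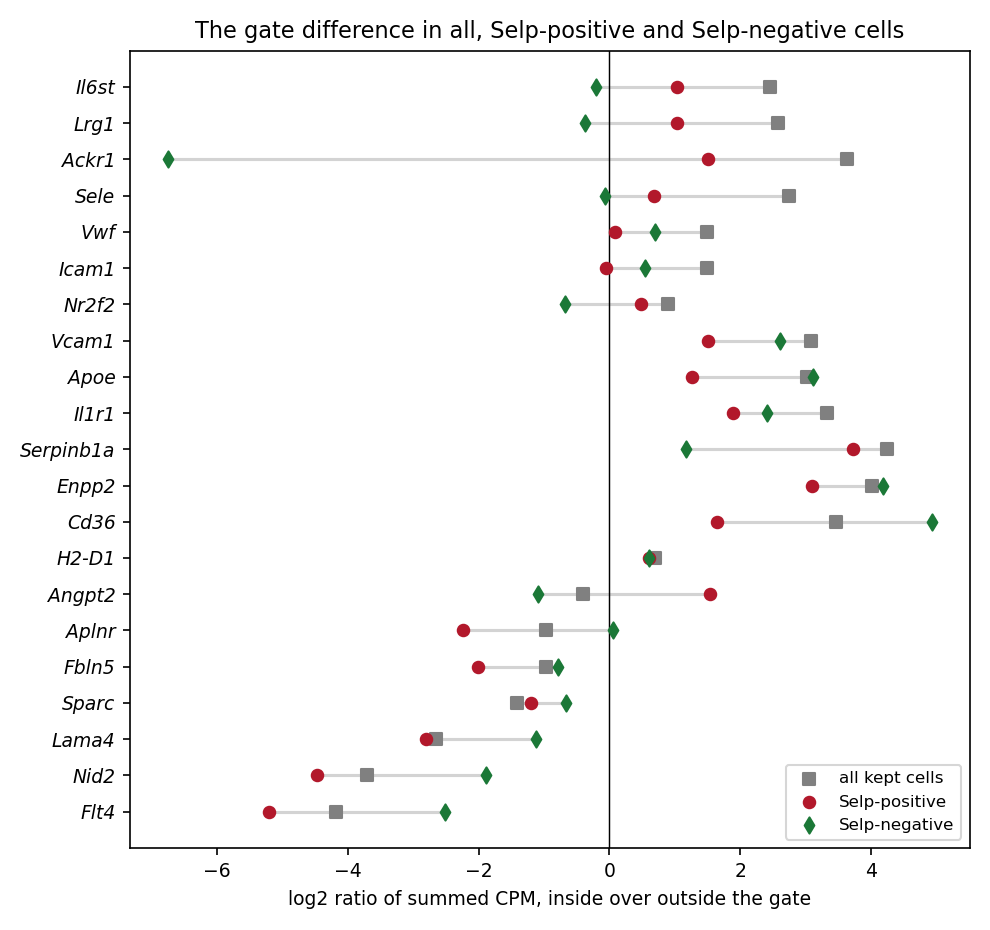
Log2 ratio of summed CPM, inside over outside the gate, for 21 genes in all kept tumour cells (grey squares), Selp-positive cells (red circles) and Selp-negative cells (green diamonds). For Ackr1 the ratio was 3.63 over all cells and 1.5 in Selp-positive cells, and for Aplnr it was -0.97 and -2.23.

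Other genes ran differently between Selp-positive and Selp-negative cells in the 2 gates. Aplnr was at 146.2 CPM in Selp-positive and 293.96 in Selp-negative cells inside, but at 687 and 281.5 outside. Its log2 ratio between the gates was -2.23 among Selp-positive, 0.06 among Selp-negative and -0.97 among all cells. Cd36 also ran in opposite directions: inside, it was lower in Selp-positive than in Selp-negative cells (2268 and 5048 CPM), while outside it was higher (723 and 165.6 CPM). The gates thus stood closer together for Cd36 among Selp-positive than among Selp-negative cells, unlike for Aplnr. Fbln5 was at 324.9 and 271.9 CPM inside and at 1305 and 468 CPM outside. A second rule named genes whose gate ratio differed most between Selp-positive and Selp-negative cells. Naaa, Lgr4, Armc1, Ints10, C1ra and Clca3a1 were higher inside among Selp-positive cells and lower among Selp-negative cells; each had at most 4 counts in the 24 Selp-negative cells inside, a small set. C1ra, a complement protease, was at 221.7 and 72.7 CPM in Selp-positive cells (3.05-fold higher), without overlap of plates. Lgr4, a receptor of R-spondins, was at 51.5 and 2.66 CPM, the latter from 1 cell, the lymphatic one, without which it was at least 428.9-fold higher. Clca3a1 (161.6 and 56.1 CPM, and 4.43-fold higher without 1 poolC cell) has close paralogs, so its counts are uncertain. Armc1 and Ints10 were near 2-fold with overlapping plates, and 3.14-fold and 3.76-fold higher without 1 poolC cell each. In the other direction, Adh1, Gja4, Bmp2, Prom1, Cyp4b1 and Piezo2 were at least 2-fold lower in Selp-positive cells. Except for Piezo2, their plates overlapped and 1 to 5 outside cells carried them at 10 CPM or more. Prom1, a membrane glycoprotein, came outside from the lymphatic cell alone, without which no outside count remained; without the libraries held in lymph node libraries it was 1276-fold lower. Adh1, an alcohol dehydrogenase, was at 0 inside, and at least 335.3-fold lower without 1 poolD cell. Cyp4b1, a monooxygenase, was 1.78-fold lower without 1 poolC cell. Bmp2, a growth factor, had 1 count inside against 21.96 CPM outside (2265-fold, 405 to 89604), and was at least 729-fold lower without the cell that held it.

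**Figure D5:**
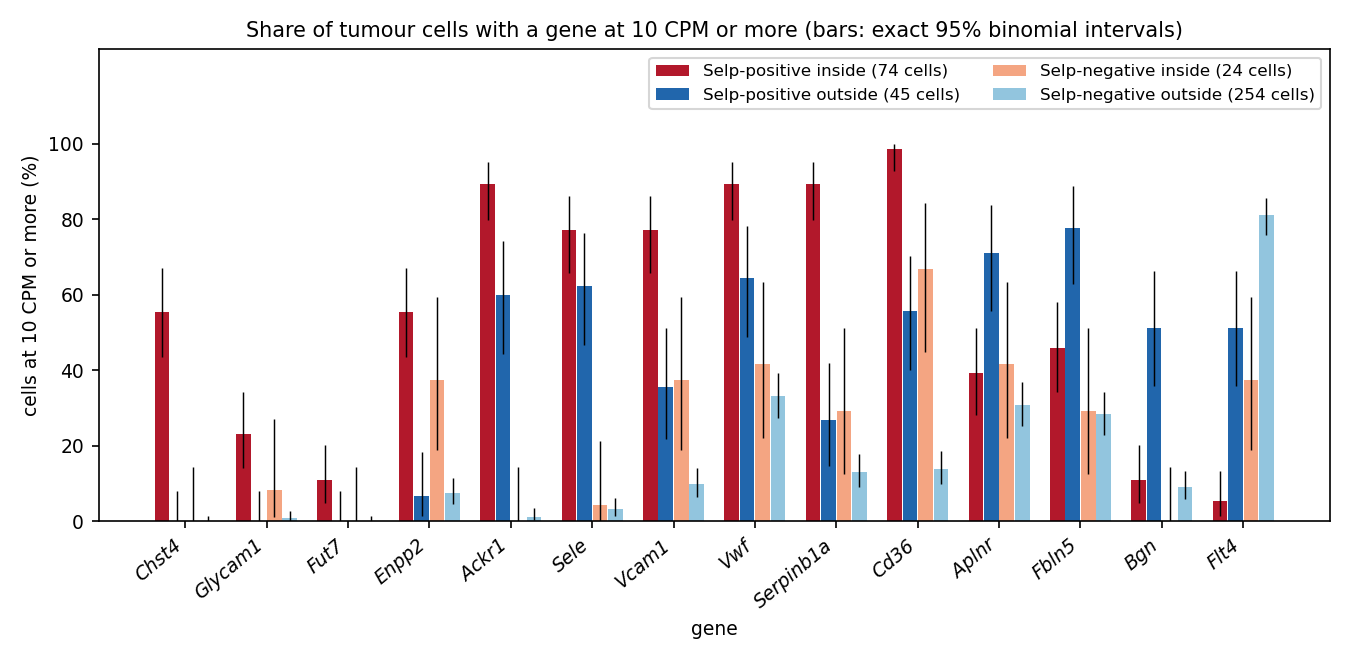
Percent of cells with a gene at 10 CPM or more in 4 sets of tumour cells (Selp-positive and Selp-negative, inside and outside the gate), with exact 95% binomial intervals. Chst4 was at 55.4% of Selp-positive cells inside and at 0% in the other 3 sets, and Ackr1 at 89.2% and 60.0% of Selp-positive cells inside and outside.

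The Selp-positive cells inside the gate were not uniform. Taking 10 CPM as the limit, 11 of 74 held both Chst4 and Glycam1, 30 Chst4 alone, 6 Glycam1 alone and 27 neither. Of the 8 cells with Fut7, 4 also held Chst4. Adhesion genes were broader. Sele and Vcam1 were found together in 48 of 74 cells, each alone in 9, and neither in 8; outside, 13 of 45 held both, 15 Sele alone, 3 Vcam1 alone and 14 neither. Of the 41 Chst4-positive cells, 38 held Ackr1, 35 Sele and 33 Vcam1. Ackr1 and Vwf were found together in 62 of 74 cells inside and 24 of 45 outside, and 4 and 13 cells held neither. Outside the gate, 29 of 45 cells held Vwf and 27 held Ackr1. Thinned to 100000 counts, Ackr1 was detected in 66 of 74 and 28 of 45 cells, Vcam1 in 57 and 16, Serpinb1a in 67 and 12, and Enpp2 in 41 and 4. Each of these numbers was within 1 cell of the unthinned one. Other genes moved more. Glycam1 went from 17 to 22 of 74 cells inside and from 0 to 1 of 45 outside. Inside, Flt4 went from 4 to 7 cells and Nr2f2 from 52 to 48. Thinning matched total counts per cell, not the number of genes detected or the ribosomal share.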

How the data were processed

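Counts per gene were deposited by the authors as whole numbers, 1 column per single-cell library, for 51826 features; 92 repeated rows were summed, giving 51734. The submitters' processing notes name FastQC 0.11.4, STAR 2.4.1b, Subread 1.4.6-p2 and the mouse build GRCm38 (mm10). The sources used here do not give the annotation or strand setting. A pair of ribosomal RNA features was left out of all totals.

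Counts of the kept Selp-positive cells were summed per gate and per plate and expressed as CPM. Ratios of sums carry exact Poisson intervals at 95%. A gene was examined when it reached 10 CPM in at least 1 sum, and called past 2-fold. Genes with no count on 1 side were set against 3 counts over that group. With 1 sample per gate no test was made. The members, lists and rules were chosen with earlier results of these data known. Genes were named by size: 12 each way from those with at least 50 CPM, a count in 30% of cells and 2-fold in all 8 plate pairs, and 6 each way by the ratio of ratios against Selp-negative cells, with 50 CPM in at least 1 of 4 sums. Some single genes of the lists are not reported here. No doublet caller was run on these sorted wells. Alternatives covered normalization (including TMM factors from edgeR 4.0.16), low-value filters, cell weighting, thinning, the Selp threshold and left-out plates. Scripts were tested on simulated data and used Python 3.11.15, numpy 2.4.6, pandas 2.3.3, scipy 1.17.1, matplotlib 3.10.9 and R 4.3.3.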

Additional observations from a re-analysis of the deposited data

Results flagged for a closer look

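The gate difference of 3 genes ran one way among Selp-positive cells and the other way among Selp-negative cells, in all 8 pairs of plates each. C1ra, a complement protease, had a log2 ratio inside over outside of 1.61 among Selp-positive and -9.55 among Selp-negative cells. Clca3a1, which has close paralogs, had 1.53 and -8.52. Both had at most 3 counts in the 24 Selp-negative cells inside the gate. Angpt2 had 1.55 and -1.08: inside the gate it was at 586 CPM in Selp-positive and 386 in Selp-negative cells, and outside at 200.7 and 819 CPM. The difference between Selp-positive and Selp-negative cells was not tested for any of the 3.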

How the results depend on the processing

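The numbers of genes past 2-fold, 1387 higher and 1582 lower, stayed within 1.5 times of themselves except with no CPM minimum (4350 and 3854) and, for lower genes, with ribosomal RNA in the totals (903, with 1994 higher). The Selp-positive share at 1000 CPM or more was 57.1% inside and 8.70% outside. Of the genes examined by name or list, 32 were higher and 37 lower by at least 2-fold under every alternative run. Those of them named as the largest differences in each direction had already passed 2-fold in every pair of plates by rule. The median log2 ratio turned to 0.0188 for chemokines without poolA and to 0.12 for proliferation genes at Selp of 1000 CPM or more. At that Selp threshold, which kept 56 and 26 cells, log2 ratios turned to 4.87 for Gcnt1, -0.98 for Madcam1, 1.73 for Ccl21a, 3.12 for Hey1, 2.17 for Efnb2, 1.63 for Dll4, 2.10 for Sema3g, 6.71 for Kcne3, 0.13 for Lamb1, 6.26 for Top2a, 0.81 for Cdk1, 3.55 for Prox1, 6.44 for Lyve1 and 4.54 for Pdpn. Without pool3 Madcam1 turned to -1.40, and without poolD Efnb2 turned to 0.63 and Sema3g to 2.18. Without cells bearing lymphatic markers, and without poolC, the log2 ratios were 2.07 and 1.45 for Ccl21a, 3.92 and 3.25 for Prox1, 5.98 and 6.13 for Lyve1, and 4.91 and 4.23 for Pdpn. Leaving out each cell in turn, an alternative chosen after seeing the data, gave ranges of -15.82 to 2.10 for Ccl21a, -8.76 to 2.45 for Sema3g, -2.71 to 0.27 for Cxcl11, -8.002 to 3.89 for Prox1, -4.10 to 6.78 for Lyve1 and -10.34 to 4.88 for Pdpn. Apart from the cell or plate removed, the cause was not tested. No paired analysis was possible because the shared numbers name wells of a plate, the labels name no animal, and no test was made. The shallower outside cells, with 3 counts worth 0.116 CPM against 0.0291 inside, limit what 0 counts can show there.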

Other observations

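Some genes outside the lists differed between the gates in how many Selp-positive cells carried them. Lifr, the receptor of leukemia inhibitory factor, passed 10 CPM in 66 of 74 cells inside and 13 of 45 outside, and Ehd3, a protein of endocytic recycling, in 55 and 15. Cdh13, T-cadherin, went the other way, in 31 of 74 cells inside and 38 of 45 outside. These genes were chosen after their values were seen. Ehd3 was at 522 CPM in Selp-positive and 56.1 in Selp-negative cells inside the gate, and at 76.1 and 93.8 CPM outside. Gpihbp1, a capillary gene, was at 38.6 CPM in Selp-positive and 1988 in Selp-negative cells inside, and at 245.6 and 1884 outside. Esm1, a tip cell gene, was at 0 in Selp-positive cells of both gates and at 196.8 and 315.996 CPM in Selp-negative cells inside and outside.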
